A study of Mus musculus with 21 samples.

Results

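The 41 genes described here form the cell-cycle and proliferation genes of the series. They were chosen by symbol, with earlier results of these data known, as the cyclins, kinases, replication factors, chromosome proteins and spindle proteins that dividing cells make. All 41 were found among the 45706 genes of the expression table, and all 41 passed the filter on low counts, which asked for at least 5 counts over all libraries. Their levels were measured in 21 RNA-seq libraries of cells sorted from the brains of male mice aged 17 to 24 weeks. Controlled cortical impact (CCI), a model of traumatic brain injury in which a piston strikes the exposed cortex, was given to wild-type (WT) mice and to Fgg390-396A (Fgg γ390–396A) mice. The latter carry a knock-in mutation in the fibrinogen γ chain, so that their fibrinogen still clots but lacks the site bound by the microglial receptor CD11b/CD18. Microglia (CD45low CD11b+) were collected at 1 d and 7 d after CCI from both genotypes. They were also collected from sham controls, which were WT mice with a craniotomy and no impact. The labels give no time after surgery for the sham controls, and both days were compared with this 1 sham group. Infiltrating myeloid cells (CD45hi CD11b+, labelled macrophages) were collected at 1 d from both genotypes. Each of the 7 groups held 3 libraries, and each library came from the cells of 2 pooled brains, with 40000 microglia or 25000 infiltrating cells sorted. There was no sham group of the Fgg390-396A genotype, so both genotypes were compared with the same WT sham controls.

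In a cell that leaves quiescence, E2F factors switch on the E-type cyclins and the genes that load and fire replication origins and supply nucleotides. Later, in G2 and mitosis, another wave of genes encodes the mitotic cyclins and kinases, the checkpoint, the centromere and the spindle. Many of them are controlled through CHR elements, which the DREAM and MYB-FOXM1 complexes bind, and through separate CCAAT elements. Adult microglia renew slowly in the healthy brain and divide locally around an injury, so these genes are commonly read as a sign of their proliferation. The 41 genes were sorted into 7 roles. There were 3 G1/S genes, 10 genes of the replication origin and fork and 4 of nucleotide synthesis, which make 17 genes of G1/S and S phase. There were 9 mitotic cyclins, kinases and checkpoint genes, 2 partners of the anaphase-promoting complex, 6 chromosome and centromere genes and 7 spindle and cytokinesis genes, which make 24 mitotic genes.

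Sequences before RefSeq start sites held E2F and CHR letters at different rates in the S-phase and the mitotic genes. RefSeq windows of the 250 bases before a start site, on build GRCm38.p6, were matched to 35 of the 41 genes (38 windows). Windows for Ccna2, Ccne2, Aurkb, Kif20a, Mcm4 and Tpx2 were not used here. The windows of E2f1 and Cdc6, both windows of Mcm7 and the second of Uhrf1 lie inside the annotated gene and not upstream of it. For 28 of the 38 windows, the first 50 bases after the start lay in an annotated transcript of the gene. E2F letters were taken as either TTCCCGC or TTGGCGC, and also as TTGCCGC and as TTCGCGC, on both strands. They were found in 9 of 17 windows of G1/S and S-phase genes (52.9%) and in 3 of 21 windows of mitotic genes (14.3%). Of all 32851 windows, 7.89% held them. The 9 include the window of Cdc6, both of Mcm7 and the second of Uhrf1, which lie inside the gene. Mcm7 and Uhrf1 thus count with 2 windows each. The CHR letters TTTGAA were found in 2 S-phase windows (11.8%), in 8 mitotic windows (38.1%) and in 16.0% of all windows. The CCAAT letters were found in 70.6%, 90.5% and 33.8%, and every mitotic window with the CHR letters also held CCAAT. A match describes letters in a window and not a bound site. Below, 3 genes that rose at 1 d (Mcm6, Mcm5 and Uhrf1, the first of its windows) are set against 3 mitotic genes (Cdk1 and Top2a, which rose, and Cdc20, which did not pass). Each line gives the 150 bases before the start, 5′ to 3′ along the gene, with E2F, CHR and CCAAT letters in capitals.
Mcm6 (chr1:128359706-128359855, minus strand): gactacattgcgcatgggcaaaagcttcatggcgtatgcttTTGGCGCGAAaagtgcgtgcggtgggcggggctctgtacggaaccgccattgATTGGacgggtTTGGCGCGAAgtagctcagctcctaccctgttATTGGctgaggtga
Mcm5 (chr8:75109359-75109508, plus strand): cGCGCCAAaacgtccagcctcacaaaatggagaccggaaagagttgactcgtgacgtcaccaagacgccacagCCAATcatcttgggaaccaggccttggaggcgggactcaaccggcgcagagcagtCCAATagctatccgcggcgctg
Uhrf1 (chr17:56303187-56303336, plus strand): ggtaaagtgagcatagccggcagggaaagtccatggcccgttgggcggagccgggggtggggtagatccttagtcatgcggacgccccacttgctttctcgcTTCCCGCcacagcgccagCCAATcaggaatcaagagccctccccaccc
Cdk1 (chr10:69352913-69353062, minus strand): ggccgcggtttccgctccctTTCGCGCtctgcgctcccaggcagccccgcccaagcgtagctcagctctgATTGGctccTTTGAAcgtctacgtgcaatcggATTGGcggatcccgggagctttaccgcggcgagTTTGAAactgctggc
Top2a (chr11:99024190-99024339, minus strand): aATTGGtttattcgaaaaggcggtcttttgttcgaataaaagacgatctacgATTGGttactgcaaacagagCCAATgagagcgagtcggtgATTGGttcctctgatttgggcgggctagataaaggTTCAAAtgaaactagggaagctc
Cdc20 (chr4:118437344-118437493, minus strand): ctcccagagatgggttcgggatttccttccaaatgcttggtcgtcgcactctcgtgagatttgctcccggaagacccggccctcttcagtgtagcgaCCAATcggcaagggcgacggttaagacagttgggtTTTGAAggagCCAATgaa
Mcm6 held a pair of 10-base stretches, in each of which TTGGCGC overlaps TTCGCGC read on the other strand. Mcm5 and Uhrf1 held 1 E2F match each in the printed bases. Top2a and Cdc20 held 1 CHR match and no E2F match, while Cdk1 held 2 CHR matches and 1 E2F match.

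Library totals ranged from 18896957 to 51875767 counts, with a median of 27001646. A count of 3, taken as the floor of detection, lay between 0.0448 and 0.158 CPM (the count scaled to library size). This floor covers counting error only, and only roughly, because the deposited values are scaled and a count is not a read. Gene length was divided out of the deposited values, so CPM can be set side by side between genes. The 8 microglia markers were measured in every microglia library, and their summed level was 10037 to 11159 CPM in sham controls, 2744 to 4233 and 4807 to 6225 CPM at 1 d in WT and Fgg390-396A mice, and 5976 to 6840 and 7041 to 8162 CPM at 7 d. In infiltrating cells it was 345 to 963 CPM, with 2771 to 13211 CPM over 8 neutrophil markers, 799.7 to 1168 CPM over 6 monocyte markers and 1003 to 1910 CPM over 5 border-macrophage markers. Over microglia libraries, the 6 monocyte markers summed to 6.06 to 71.7 CPM and the 8 neutrophil markers to 105 to 865 CPM, and at 1 d both ranges overlapped those of sham controls. Of 6 markers of marrow precursors, which divide, Cd34 was at 20.6 to 77.9 CPM in microglia and made up nearly all of the summed level. Of Elane, Mpo, Prtn3, Ctsg and Ms4a3, 4 were at 0 counts in sham controls, at 1 d in either genotype and at 7 d in Fgg390-396A mice, and 2 at 7 d in WT mice, where Elane, Mpo and Prtn3 were at 0.621, 0.717 and 1.05 CPM in R1 and at 0 in R2 and R3. The 8 markers of T, NK and B cells summed to at most 0.607 CPM. Ribosomal RNA and mitochondrial genes took 48.1% to 51.2% of the counts in sham controls, and more in every microglia library after injury, with 55.2% to 64.6% at 1 d in WT mice and 51.7% to 57.1% in Fgg390-396A mice. The part of these markers and shares in the results was not tested. In bulk samples, more cells of a dividing kind and more RNA per cell cannot be told apart.

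At 1 d after CCI, 23 of the 41 genes rose in WT microglia over sham controls and none fell, where a gene passed with an adjusted p under 0.05 in edgeR's quasi-likelihood test and a change of more than 1 on the log2 scale. Over all 23815 genes tested, 8.06% rose and 4.21% fell. Most of the genes that rose were genes of G1/S and S phase. Of the 17 G1/S and S-phase genes, 15 rose, with a median log2 fold change of 2.91 over the 17, and of the 24 mitotic genes 8 rose, with a median of 1.71. Over all genes the median was 0. Levels of sham and WT libraries did not overlap for 26 of the 41 genes, all higher at 1 d, against 16.8% of all genes higher and 17% lower.

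**Figure D1:**
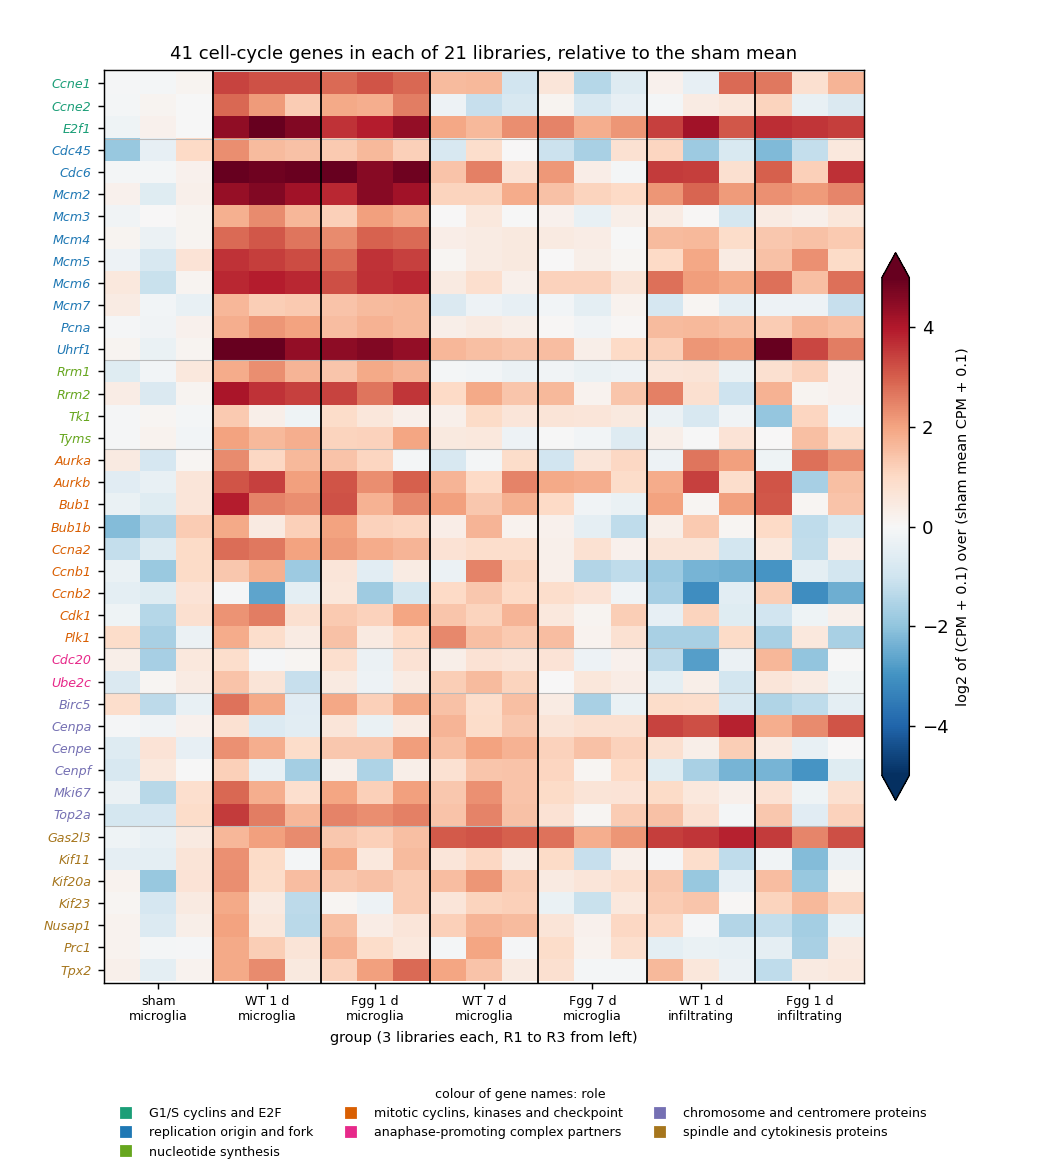
Each row is 1 of the 41 genes, grouped by role, and each column 1 of the 21 libraries; the colour is the log2 ratio of CPM + 0.1 to the sham mean + 0.1, cut at 5 in either direction. The replication genes form a dark block in both genotypes at 1 d, while Gas2l3 is darkest at 7 d and in infiltrating cells.

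All 3 G1/S genes rose. E2f1, the activator of the S-phase genes, had 1, 2 and 2 counts in sham libraries, under the floor at 0.0319, 0.0759 and 0.0503 CPM, and reached 3.24, 4.67 and 3.67 CPM in WT libraries at 1 d (log2 fold change 6.11 ± 0.62 SE, adjusted p = 1.4e-06). Ccne1 and Ccne2, the E-type cyclins that drive CDK2 into S phase, had log2 fold changes of 3.83 (adjusted p = 0.028) and 2.30 (adjusted p = 0.0043). Ccne1 was even over the WT libraries, at 2.75, 2.35 and 2.38 CPM against 0.159, 0.152 and 0.201 CPM in sham libraries.

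Of the 10 genes of the replication origin and fork, 9 rose. The 6 subunits of the MCM2-7 helicase, which unwinds DNA at each fork, all rose, but by unequal amounts. Mcm2 stood at 0.733, 0.38 and 0.754 CPM in sham libraries and at 14.8, 17.9 and 13.04 CPM at 1 d (log2 fold change 4.59 ± 0.37 SE, adjusted p = 1.5e-07). Mcm3 was the most abundant subunit in sham libraries, at 17.9, 20.4 and 22.3 CPM, and reached 70.2, 104 and 63.4 CPM (log2 fold change 1.97 ± 0.29 SE, adjusted p = 8.1e-05). The subunits were thus at unequal levels before injury, from a mean of 0.622 CPM for Mcm2 to 20.2 CPM for Mcm3, and closer to each other after it, from 11.2 CPM for Mcm5 to 79.0 CPM for Mcm3. The log2 fold changes of the others were 2.91 for Mcm4, 3.57 for Mcm5, 3.86 for Mcm6 and 1.43 for Mcm7, with adjusted p between 2.5e-07 and 0.0014. Mcm6 went from 4.18, 1.29 and 3.17 CPM to 40.5, 45.6 and 40.2 CPM.

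Cdc6, which loads the helicase onto origins, had 0, 0 and 1 counts in the sham libraries and 110, 85 and 82 counts in the WT libraries at 1 d. With a single sham count the ratio was 340, and its adjusted p was 6.8e-04. Treated as read counts, these values give an interval of 60.5 to 13473, which is approximate because gene length was divided out. Pcna, the sliding clamp of the DNA polymerases, was the most abundant of the 41 genes, at 32.6, 30.2 and 39.8 CPM in sham libraries and 119.7, 159 and 137 CPM at 1 d (log2 fold change 2.02 ± 0.16 SE, adjusted p = 1.2e-07). Uhrf1, which restores DNA methylation behind the fork, rose from 0.255, 0.152 and 0.251 CPM to 10.6, 9.91 and 6.6 CPM (log2 fold change 5.32 ± 0.63 SE, adjusted p = 6.6e-06). Cdc45, the helicase partner that fires origins, was higher in each WT library (5.27, 3.18 and 2.85 CPM) than in any sham library (0.191, 0.721 and 2.04 CPM) but did not pass the test (log2 fold change 1.93 ± 0.96 SE, adjusted p = 0.2).

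In nucleotide synthesis 3 of 4 genes rose. Rrm1 and Rrm2, the large and small subunits of ribonucleotide reductase, had log2 fold changes of 2.02 (adjusted p = 2.5e-04) and 4.02 (adjusted p = 0.0015). Rrm1 went from 1.94, 2.7 and 4.35 CPM to 11.1, 15.6 and 9.95 CPM, and Rrm2, the subunit limited to S phase, from 0.51, 0.19 and 0.427 CPM to 7.98, 5.64 and 5.00 CPM. Tyms, which makes thymidylate, rose (log2 fold change 1.85 ± 0.35 SE, adjusted p = 7.5e-04). Tk1, the salvage kinase for thymidine, stood at 7.78, 8.69 and 7.57 CPM in sham libraries and 19.8, 9.95 and 6.91 CPM at 1 d, and the groups overlapped (log2 fold change 0.61 ± 0.48 SE, adjusted p = 0.43).

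**Figure D2:**
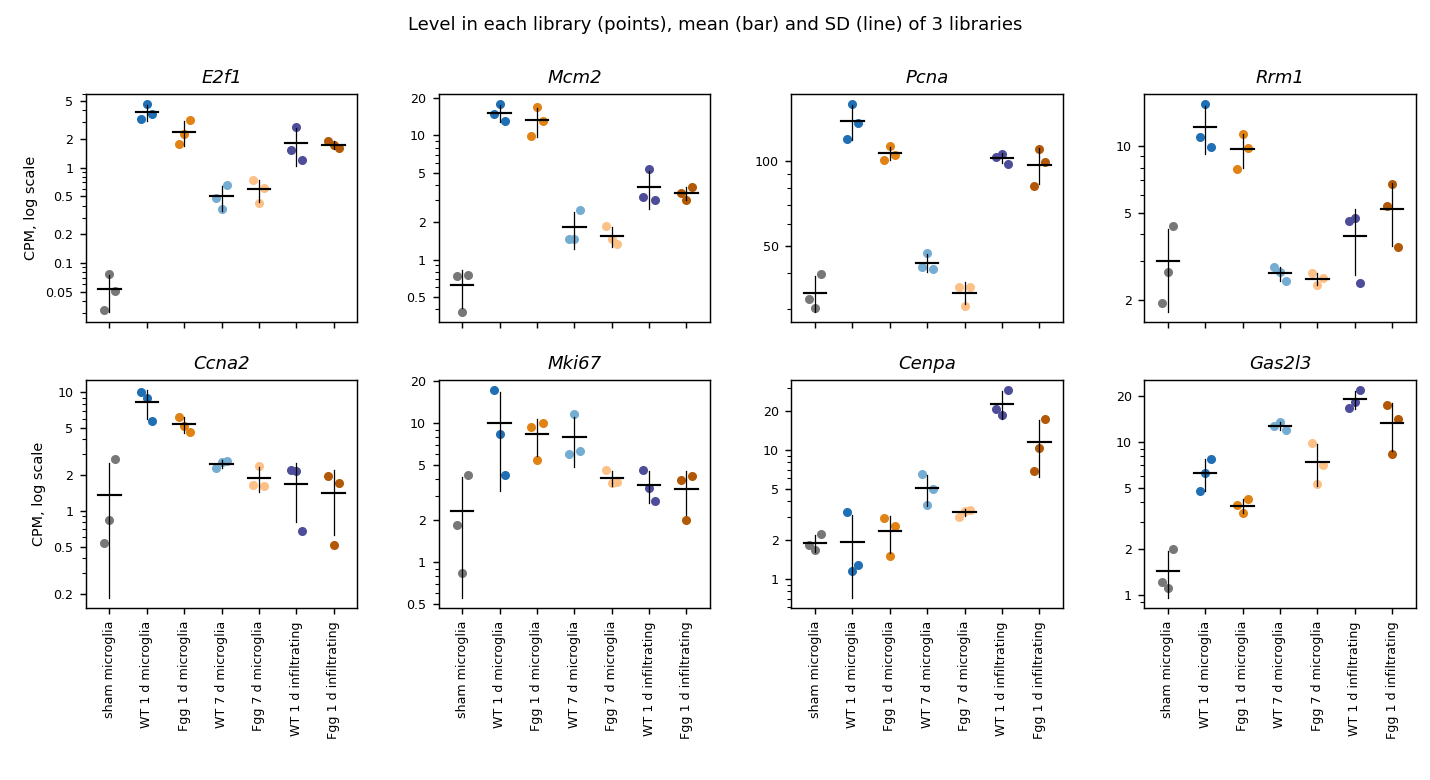
Points are the CPM of single libraries on a log axis for 8 genes in the 7 groups, with the mean as a bar and the SD over 3 libraries as a line. E2f1, Mcm2, Pcna and Rrm1 are highest in microglia at 1 d, while Gas2l3 and Cenpa are highest in infiltrating cells.

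Of the mitotic cyclins, kinases and checkpoint genes, 4 of 9 rose in WT mice at 1 d. Ccna2, the cyclin used in S phase and G2, was at 0.542, 0.835 and 2.72 CPM in sham libraries and 10.00, 8.94 and 5.74 CPM at 1 d (log2 fold change 2.58 ± 0.58 SE, adjusted p = 0.0033). Cdk1, the kinase of mitotic entry, had 1.21, 0.456 and 2.56 CPM in sham libraries and 6.99, 8.87 and 2.54 CPM at 1 d, with the lowest WT library just below the highest sham library (log2 fold change 2.11 ± 0.62 SE, adjusted p = 0.023). Aurkb, the kinase of the chromosomal passenger complex, and Bub1, a spindle checkpoint kinase, had log2 fold changes of 3.26 (adjusted p = 0.025) and 3.41 (adjusted p = 0.0082). The B-type cyclins that complete mitotic entry did not pass. Ccnb1 was at 0.51, 0.114 and 1.38 CPM in sham libraries and 1.83, 2.53 and 0.117 CPM at 1 d. Ccnb2 was at 0.51, 0.456 and 1.28 CPM and 0.725, 0.0362 and 0.507 CPM, and was the only one of the 41 genes with a negative log2 fold change (log2 fold change -0.83 ± 1.36 SE, adjusted p = 0.77). Neither Aurka, Bub1b nor Plk1 passed.

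The partners of the anaphase-promoting complex, Cdc20 (its mitotic activator) and Ube2c (its ubiquitin-conjugating enzyme), did not pass. Cdc20 was at 0.733, 0.114 and 0.88 CPM in sham libraries and 1.15, 0.543 and 0.625 CPM at 1 d, and Ube2c at 1.66, 3.04 and 3.77 CPM and 7.83, 4.52 and 1.21 CPM. Of the chromosome and centromere genes 3 of 6 rose. Top2a, which untangles replicated DNA, went from 1.02, 1.03 and 3.77 CPM to 22.7, 11.8 and 6.28 CPM (log2 fold change 2.79 ± 0.62 SE, adjusted p = 0.003). Mki67, the coat protein of mitotic chromosomes used as the Ki-67 proliferation marker, went from 1.85, 0.835 and 4.27 CPM to 17.4, 8.36 and 4.22 CPM (log2 fold change 2.09 ± 0.53 SE, adjusted p = 0.0085), and its lowest WT library lay within the sham range. Cenpe, a centromere motor, rose by a log2 fold change of 2.01 (adjusted p = 0.033). Birc5 (survivin) did not pass (log2 fold change 1.94 ± 0.77 SE, adjusted p = 0.1), nor did Cenpf (adjusted p = 1) or Cenpa, which was at 1.82, 1.67 and 2.24 CPM in sham libraries and 3.32, 1.16 and 1.29 CPM at 1 d. Of the 7 spindle and cytokinesis genes, Gas2l3, which links actin and microtubules at the midbody, was the 1 that rose, from 1.21, 1.1 and 1.99 CPM to 4.77, 6.22 and 7.69 CPM (log2 fold change 2.11 ± 0.31 SE, adjusted p = 6.3e-05). The other 6 (Kif11, Kif20a, Kif23, Nusap1, Prc1 and Tpx2) had log2 fold changes between 1.04 and 1.99.

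The WT libraries at 1 d differed more from each other in the mitotic than in the replication genes. The mean log2 CPM of the 10 replication genes had an SD of 0.16 over the 3 libraries, whereas that of the 6 chromosome genes had an SD of 1.08 and that of the 7 spindle genes an SD of 0.88. Library R1 was highest and R3 lowest in each of these mitotic roles. R1 also had the highest monocyte marker sum, at 71.7 CPM against 8.68 and 14.1 CPM in R2 and R3, and the highest neutrophil marker sum, at 841 CPM against 173 and 564 CPM. Among sham libraries, R3 was likewise highest in both sums, at 60.1 and 801 CPM, and in the mean log2 CPM of the 41 genes, and the part of these markers was not tested. Birc5, for example, was at 7.63, 4.31 and 0.703 CPM over the 3 libraries. Of the 23 calls, 18 were also made in every fit that left out 1 library. Aurkb, Ccne1, Cdk1, Cenpe and Mki67 were each lost in at least 1 such fit, with adjusted p of up to 0.1, 0.097, 0.1, 0.14 and 0.071. Each of the 6 libraries lost at least 1 call when left out, and 19 to 23 genes were called over the 6 fits.

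In Fgg390-396A microglia at 1 d, 20 of the 41 genes rose over the same sham controls and none fell, against 5.49% and 1.15% of all genes. All 20 were among the 23 that rose in WT mice, and Ccne1, Cdk1 and Cenpe were the 3 that passed in WT mice only, with adjusted p of 0.063, 0.13 and 0.072 here. Of the 17 G1/S and S-phase genes 14 rose, and of the 24 mitotic genes 6 rose. E2f1 was at 1.76, 2.24 and 3.13 CPM (log2 fold change 5.41 ± 0.60 SE, adjusted p = 8.8e-06), Mcm2 at 9.85, 16.8 and 13.02 CPM (log2 fold change 4.39 ± 0.36 SE, adjusted p = 3.7e-07) and Pcna at 101, 113 and 105 CPM (log2 fold change 1.64 ± 0.16 SE, adjusted p = 1.4e-06). Cdc6 had 302, 96 and 77 counts, against the single count of the sham group. Top2a, at 11.4, 10.1 and 11.5 CPM, and Mki67, at 9.47, 5.49 and 10.00 CPM, were above the sham range in all 3 libraries. Levels did not overlap with sham for 30 of the 41 genes, all higher, against 15.7% of all genes higher and 13.4% lower. Of the 20 calls, 13 were made in every fit that left out 1 library, and 14 to 21 genes were called over these fits. The count was 15 without sham R1, 16 without sham R2 and 14 without Fgg390-396A R3. Aurkb was lost in all 6. The 7 calls lost in at least 1 of them were Aurkb, Bub1, Ccna2, Ccne2, Mki67, Top2a and Tyms.

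At 7 d after CCI, 3 of the 41 genes were called higher in WT microglia than in sham controls (Gas2l3, E2f1 and Mcm2) and none lower, against 1.93% and 0.0924% of all genes. Gas2l3 was at 12.7, 13.4 and 11.98 CPM (log2 fold change 3.13 ± 0.32 SE, adjusted p = 2.2e-05). E2f1 stood at 0.478, 0.366 and 0.657 CPM (log2 fold change 3.17 ± 0.58 SE, adjusted p = 0.0034) and Mcm2 at 1.48, 1.46 and 2.51 CPM (log2 fold change 1.53 ± 0.34 SE, adjusted p = 0.015), each still above every sham library. The median log2 fold change was 0.42 over the 17 G1/S and S-phase genes and 1.44 over the 24 mitotic genes, all 24 of which were positive, and was 0 over all genes. The replication genes Pcna (0.35), Mcm3 (0.20), Mcm5 (0.36) and Mcm7 (-0.46) had small log2 fold changes. Pcna was at 42.2, 47.3 and 41.5 CPM, next to 32.6, 30.2 and 39.8 CPM in sham controls.

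Several mitotic genes stood above sham controls at 7 d without passing the test. Mki67 was at 6.02, 11.7 and 6.34 CPM (log2 fold change 1.77 ± 0.53 SE, adjusted p = 0.09), Top2a at 5.4, 11.2 and 5.49 CPM (log2 fold change 1.91 ± 0.60 SE, adjusted p = 0.12) and Cenpa, the histone variant of the centromere, at 6.45, 3.74 and 4.95 CPM (log2 fold change 1.396 ± 0.40 SE, adjusted p = 0.071). All 3 genes were above every sham library. Levels did not overlap with sham for 17 of the 24 mitotic genes, all higher, and for 8 higher and 1 lower (Ccne2) of the 17 G1/S and S-phase genes. Over all genes, 10.5% were higher and 9.59% lower without overlap. Ube2c was at 6.83, 8.53 and 6.3 CPM against 1.66, 3.04 and 3.77 CPM, and Cdk1 at 3.82, 3.21 and 4.83 CPM against 1.21, 0.456 and 2.56 CPM. The count of 3 calls depended on the setting. It was 8 with DESeq2, which added Cdc6, Cenpa, Cenpe, Mki67 and Top2a, 5 without sham R3, which added Mki67 and Top2a, 2 without sham R2 or WT R3, which lost Mcm2, and 1 in a fit of these 2 groups alone, which kept Gas2l3.

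**Figure D3:**
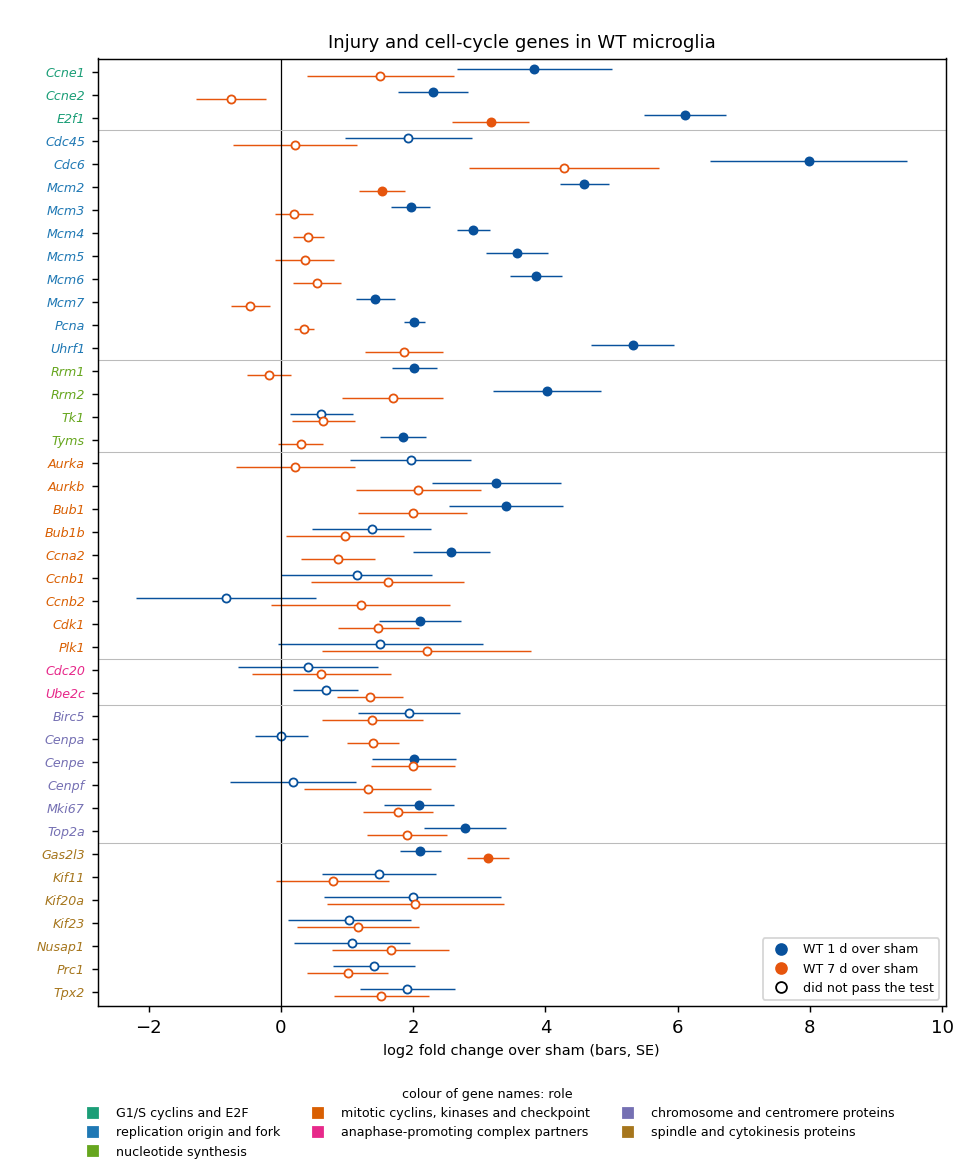
Points are log2 fold changes over sham controls of each gene in WT microglia at 1 d and 7 d, with SE as bars; filled points passed the test and both days share the sham libraries. The upper, S-phase rows move far from 0 at 1 d and return towards it at 7 d, while most mitotic rows lie between 0 and 3 on both days.

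In Fgg390-396A microglia at 7 d, 2 of the 41 genes passed over sham controls, Gas2l3 (9.86, 5.31 and 7.03 CPM, log2 fold change 2.36 ± 0.31 SE, adjusted p = 6.9e-04) and E2f1 (0.743, 0.431 and 0.609 CPM, log2 fold change 3.42 ± 0.58 SE, adjusted p = 0.0047), and none fell, against 0.63% and 0.0336% of all genes. Mcm2 was at 1.87, 1.47 and 1.33 CPM (log2 fold change 1.31 ± 0.34 SE, adjusted p = 0.087). The median log2 fold change was 0.13 over the G1/S and S-phase genes and 0.65 over the mitotic genes. Mki67 was at 4.63, 3.73 and 3.8 CPM (log2 fold change 0.79 ± 0.52 SE, adjusted p = 0.74) and Top2a at 3.3, 2.08 and 4.77 CPM (log2 fold change 0.79 ± 0.59 SE, adjusted p = 0.8). Levels did not overlap with sham for 10 of the 41 genes, all higher, against 8.45% of all genes higher and 7.2% lower.

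The direct comparison of 7 d with 1 d, which uses no sham library, gave different counts in the 2 sets of genes. In WT mice 13 of the 17 G1/S and S-phase genes fell and none of the 24 mitotic genes did, with medians of -2.33 and -0.17. Cenpa and Gas2l3, both mitotic, rose. Of all genes 4.39% fell and 2.67% rose. In Fgg390-396A mice the same 13 genes fell and none rose, with medians of -2.17 and -0.83, against 2.88% and 0.663% of all genes. The 13 were Ccne2, Cdc6, E2f1, Pcna, Rrm1, Tyms, Uhrf1 and the 6 helicase subunits. Mcm6 fell from 40.5, 45.6 and 40.2 CPM to 3.97, 5.2 and 3.48 CPM in WT mice (log2 fold change -3.32 ± 0.38 SE, adjusted p = 2.4e-05) and from 27.6, 37.8 and 40.5 CPM to 6.56, 6.6 and 4.52 CPM in Fgg390-396A mice (log2 fold change -2.58 ± 0.37 SE, adjusted p = 2.9e-04). Cenpa rose in WT mice from 3.32, 1.16 and 1.29 CPM (log2 fold change 1.39 ± 0.40 SE, adjusted p = 0.029) and Gas2l3 from 4.77, 6.22 and 7.69 CPM (log2 fold change 1.03 ± 0.29 SE, adjusted p = 0.027). Leaving out 1 library removed the call of Cenpa in 4 of 6 fits, of Gas2l3 in 5 of 6 and of Cdc6 in 6 of 6, with adjusted p of up to 0.19, 0.11 and 0.16. In Fgg390-396A mice Cdc6 was lost in 5 of 6 fits and E2f1 in 4 of 6, with adjusted p of up to 0.13 and 0.11. The calls of mitotic genes depended on the setting. In WT mice Ccna2 was added with DESeq2 and in a fit of the compared groups alone. In Fgg390-396A mice DESeq2 added Bub1, Gas2l3 and Tpx2, and a fit of the compared groups alone added Ccna2, Mki67 and Top2a. The microglia marker sum rose and the gene levels fell between these days, and its part in the result was not tested.

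Whether the fibrin mutation changed these genes was asked by comparing genotypes within each day. In microglia at 1 d none of the 41 genes passed (adjusted p under 0.1 and a change of more than 1 on the log2 scale), against 0.0336% of all genes higher and 0.021% lower. Gas2l3 and Pcna had the smallest unadjusted p of the 41 genes, and neither passed. The median log2 fold change, Fgg390-396A over WT, was -0.26 over the 41 genes and 0 over all genes, and 33 of the 41 were negative. Pcna was at 101, 113 and 105 CPM in Fgg390-396A and 119.7, 159 and 137 CPM in WT libraries (log2 fold change -0.38 ± 0.15 SE, adjusted p = 0.89), and Gas2l3 at 3.83, 3.4 and 4.22 CPM and 4.77, 6.22 and 7.69 CPM (log2 fold change -0.71 ± 0.29 SE, adjusted p = 0.89). Levels did not overlap between genotypes for 4 of the 41 genes, all lower in Fgg390-396A mice (Ccne1, E2f1, Gas2l3 and Pcna), against 5.73% of all genes higher and 2.99% lower. DESeq2 also called none.

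At 7 d none of the 41 genes passed between genotypes either, with edgeR or with DESeq2. Over all genes, 0.0252% were higher and 0.0126% lower with edgeR. Birc5, Gas2l3 and Pcna had the smallest unadjusted p of the 41 genes, and none of them passed. The levels nevertheless lay lower in Fgg390-396A mice for most of the list, with a negative log2 fold change in 36 of 41 genes and a median of -0.54, against 0 over all genes. Without overlap, 13 genes were lower and none higher, or 31.7% of the 41, where 5.28% of all genes and 6.86% of those with a mean of at least 10 counts per library were lower and 5.8% of all genes higher. Of these 13, 12 were mitotic, and the mitotic genes had a median of -0.84 against -0.22 for the G1/S and S-phase genes. The 41 genes are not independent of each other, and no test of the list was made.

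Gas2l3 was at 9.86, 5.31 and 7.03 CPM in Fgg390-396A and 12.7, 13.4 and 11.98 CPM in WT libraries at 7 d (log2 fold change -0.78 ± 0.29 SE, adjusted p = 1). Birc5 was at 1.49, 0.287 and 0.86 CPM and 3.15, 2.11 and 3.32 CPM (log2 fold change -1.69 ± 0.77 SE, adjusted p = 1). Mki67 was at 4.63, 3.73 and 3.8 CPM and 6.02, 11.7 and 6.34 CPM (log2 fold change -0.98 ± 0.51 SE, adjusted p = 1), and Top2a at 3.3, 2.08 and 4.77 CPM and 5.4, 11.2 and 5.49 CPM (log2 fold change -1.12 ± 0.59 SE, adjusted p = 1). The highest Fgg390-396A library was below the lowest WT library for each of these genes. Ube2c was at 2.87, 4.2 and 3.69 CPM and 6.83, 8.53 and 6.3 CPM, likewise without overlap (log2 fold change -1.01 ± 0.50 SE, adjusted p = 1). The microglia marker sum also differed without overlap, higher in Fgg390-396A libraries at 1 d and at 7 d, and its part was not tested. The genotype effect did not differ between 1 d and 7 d by an interaction test in any of the 41 genes at an adjusted p under 0.1. None of all 23815 genes passed, and 653 genes but none of the 41 had an unadjusted p under 0.05.

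**Figure D4:**
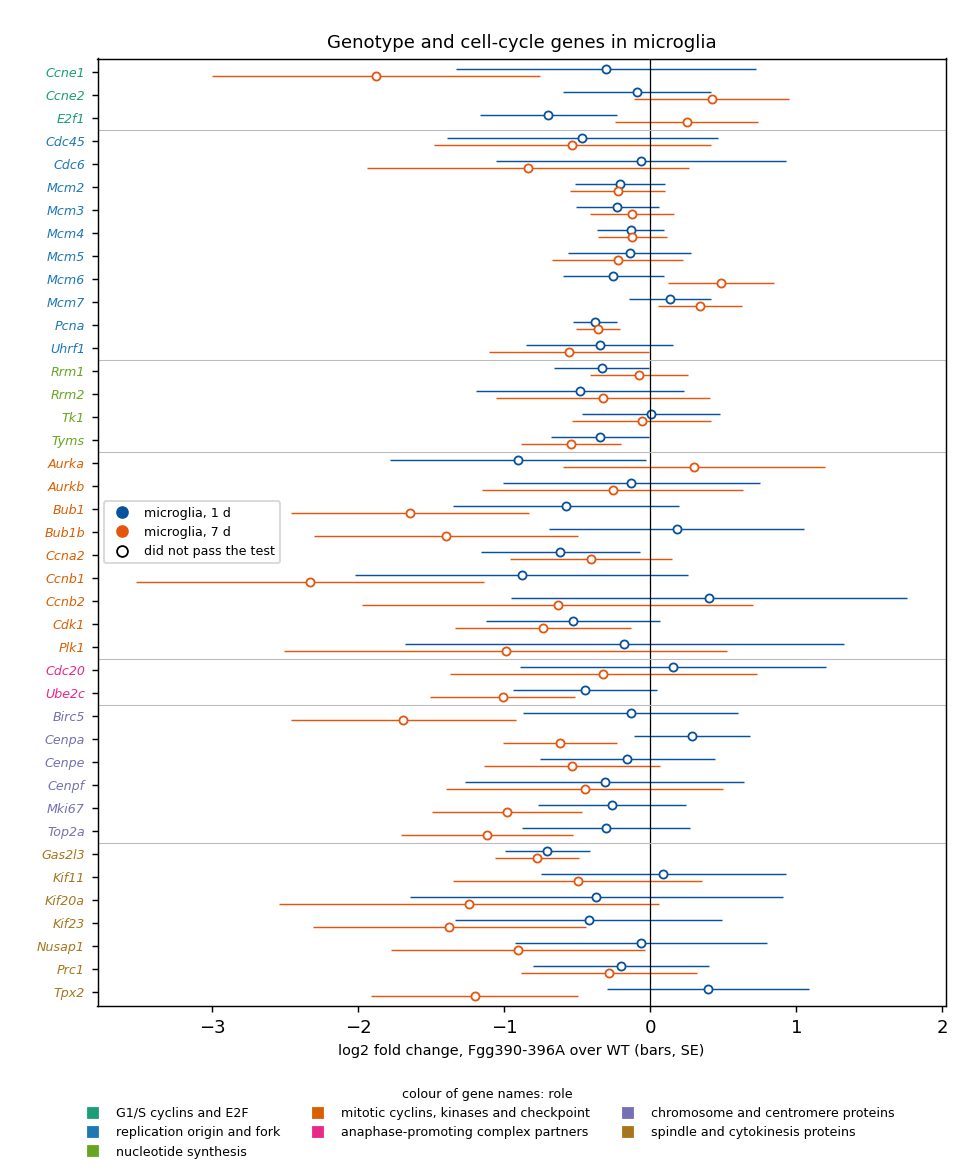
Points are log2 fold changes of Fgg390-396A over WT microglia at 1 d and 7 d with SE as bars; every point is open because no gene passed the test. At 7 d 36 of 41 points lie left of 0, with wide bars in the mitotic rows.

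In infiltrating myeloid cells at 1 d the S-phase genes were lower than in microglia of the same genotype and day. In WT mice 15 of the 41 genes were lower and 2 higher, against 6.31% and 5.61% of all genes, and in Fgg390-396A mice 12 were lower and 2 higher, against 9.7% and 6.96%. The calls of lower genes shared 10 genes, which are 10 of 15 in WT and 10 of 12 in Fgg390-396A mice. All 6 helicase subunits were among them. The lower genes were 11 of the 17 G1/S and S-phase genes and 4 of the 24 mitotic genes in WT mice, and 8 and 4 in Fgg390-396A mice. Mcm2 was at 3.19, 5.37 and 3.02 CPM in WT infiltrating cells (log2 fold change -1.98 ± 0.32 SE, adjusted p = 2.2e-04) and at 3.43, 3.04 and 3.86 CPM in those of Fgg390-396A mice (log2 fold change -1.94 ± 0.32 SE, adjusted p = 2.2e-04). Of the 10 replication genes, Pcna, Cdc6 and Cdc45 were not called in either genotype and Uhrf1 was called in WT mice only. Pcna was at 103, 106 and 97.8 CPM in WT mice (adjusted p = 0.059) and 81.7, 109.8 and 99.3 CPM in Fgg390-396A mice (adjusted p = 0.57), next to the levels at 1 d in microglia given above.

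Cenpa and Gas2l3 were the 2 genes higher in infiltrating cells in both genotypes. Cenpa reached 20.7, 18.6 and 29.2 CPM in WT mice (log2 fold change 3.57 ± 0.42 SE, adjusted p = 7.4e-06) and 6.91, 10.3 and 17.5 CPM in Fgg390-396A mice (log2 fold change 2.30 ± 0.40 SE, adjusted p = 3.4e-04), above every microglia library of either genotype and day. Gas2l3 reached 16.6, 18.2 and 21.7 CPM (log2 fold change 1.60 ± 0.29 SE, adjusted p = 7.1e-04) and 17.4, 8.27 and 14.1 CPM (log2 fold change 1.79 ± 0.30 SE, adjusted p = 2.1e-04). These cells had 4.6, 3.42 and 2.75 CPM of Mki67 and 5.59, 3.37 and 1.8 CPM of Top2a in WT mice, and Ccnb1 at 0.121, 0.0526 and 0.0451 CPM. In WT mice 12 of the 17 calls were made in every fit that left out 1 library, and the other 5 (Ccnb1, Ccne2, Cdk1, Rrm2 and Top2a) were not. In Fgg390-396A mice 7 of 14 were, while Birc5, Ccna2, Ccne2, Cdk1, Mcm6, Rrm2 and Tpx2 were not, and the count was 9 without Fgg390-396A microglia R3 and 8 in a fit of these 2 groups alone. The 2 gates differ in the number of sorted cells and in the sums of neutrophil, monocyte and border-macrophage markers given above.

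**Figure D5:**
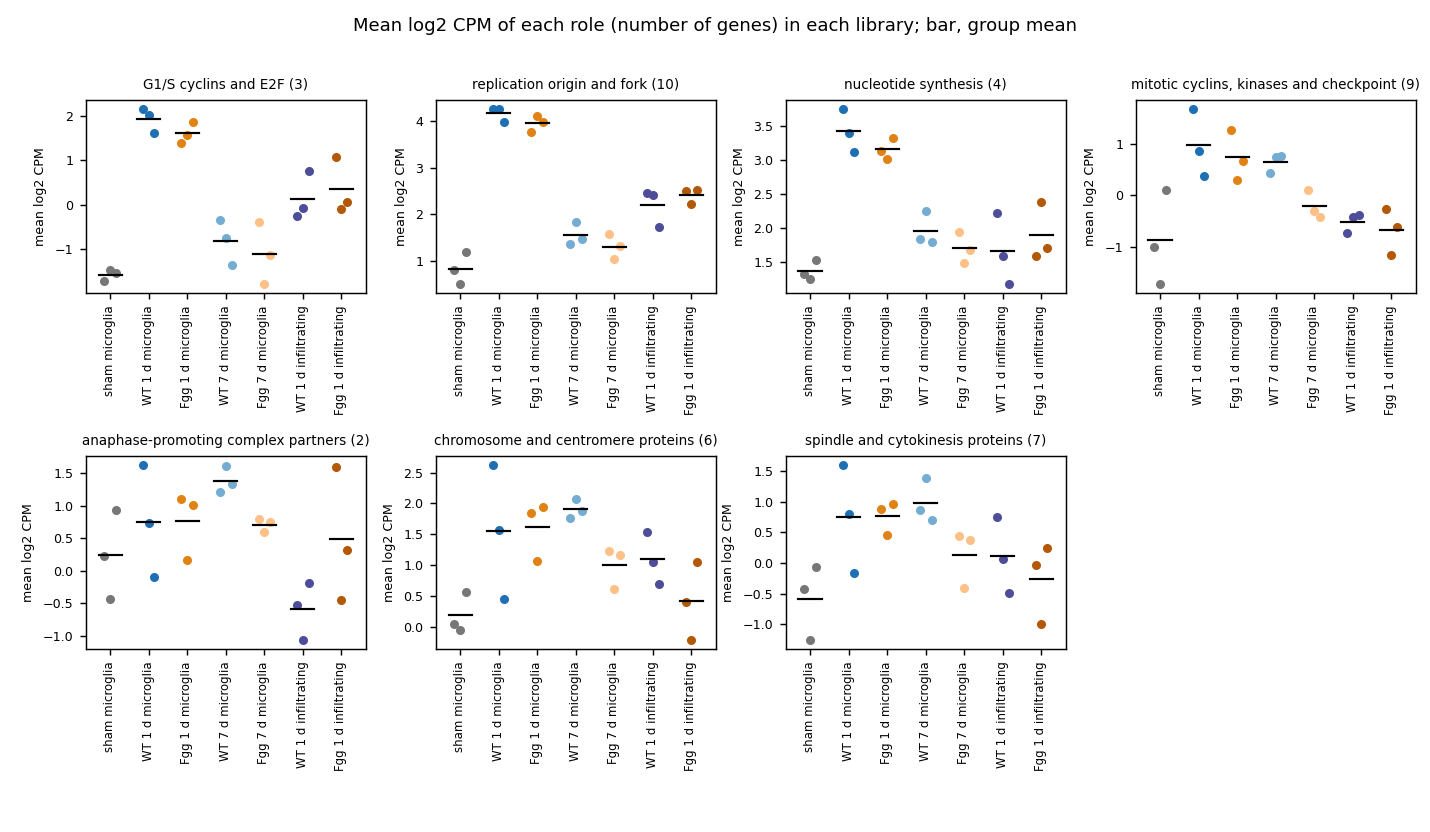
Points are the mean log2 CPM over the genes of each role in single libraries, with the group mean as a bar; the number of genes is in each panel title. The G1/S, replication and nucleotide panels peak in microglia at 1 d, with the 10 replication genes between 3.77 and 4.27 in those 6 libraries.

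Between genotypes, 1 of the 41 genes passed in infiltrating cells, against 0.252% of all genes higher and 0.202% lower. Uhrf1 was at 10.8, 3.13 and 1.76 CPM in Fgg390-396A and 0.629, 1.37 and 1.26 CPM in WT libraries (log2 fold change 2.27 ± 0.54 SE, adjusted p = 0.097). The value of Fgg390-396A R1 stood well above the other 2. The call was lost in 4 of 6 fits that left out 1 library, those without this library or without any 1 of the 3 WT libraries, with an adjusted p of up to 0.25, and also with the replicate number as a block and in a fit of these groups alone. Without overlap, Uhrf1 was the 1 gene higher in Fgg390-396A libraries and Cenpa the 1 gene lower, against 3.16% and 4.85% of all genes, and Cenpa did not pass (log2 fold change -0.98 ± 0.38 SE, adjusted p = 0.34). The genotype effect did not differ between infiltrating cells and microglia at 1 d in any of the 41 genes at an adjusted p under 0.1, where 11 of all genes passed.

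Other genes of the cell cycle, from lists outside the 41, gave the setting of these changes. In WT microglia at 1 d, 24 of 30 other replication and S-phase genes rose over sham and none fell, among them Lig1, the ligase of Okazaki fragments (log2 fold change 3.10 ± 0.25 SE, adjusted p = 1.7e-07), and Dtl, which degrades licensing factors in S phase (log2 fold change 6.67 ± 0.77 SE, adjusted p = 5.7e-06). Of 40 other mitotic genes, 14 rose and none fell, among them the condensin subunit Smc2 (log2 fold change 2.14 ± 0.27 SE, adjusted p = 1.1e-05). Over all genes, 8.06% rose and 4.21% fell. In Fgg390-396A microglia the counts were 20 of 30 and 9 of 40, where 5.49% of all genes rose. At 7 d they were 2 of 30 and 1 of 40 in WT mice (Mcm10, Dtl and Smc2) and 1 of 30 and 0 of 40 in Fgg390-396A mice (Lig1). Of all genes, 1.93% rose at 7 d in WT mice and 0.63% in Fgg390-396A mice.

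The upstream switches moved in part, where 8.06% of all genes rose and 4.21% fell in WT microglia at 1 d. Of 11 D-type cyclins and interphase kinases, 4 rose in WT microglia at 1 d, among them Ccnd2 (log2 fold change 3.89 ± 0.51 SE, adjusted p = 1.9e-05) and Cdk6 (log2 fold change 1.26 ± 0.19 SE, adjusted p = 1.0e-04). Ccnd1, the D-type cyclin with the highest level, went from 26.7, 38.5 and 41.3 CPM in sham libraries to 69.4, 109.8 and 90.8 CPM at 1 d (log2 fold change 1.34 ± 0.23 SE, adjusted p = 3.1e-04) and was at 24.6, 28.7 and 30.3 CPM at 7 d. Of 16 E2F, MYB and FOXM1 regulators 4 rose, led by the E2F partner Tfdp1 (log2 fold change 1.84 ± 0.32 SE, adjusted p = 3.9e-04) and the repressor E2f6 (log2 fold change 1.54 ± 0.29 SE, adjusted p = 8.6e-04). Foxm1 and Mybl2, which drive the mitotic wave, did not pass, at 3.05, 0.832 and 1.87 CPM and 1.72, 0.398 and 1.01 CPM at 1 d against 1.31, 0.418 and 0.83 CPM and 0.478, 0.152 and 0.0503 CPM in sham libraries.

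Of 15 CDK inhibitors and brakes, 3 rose and 3 fell in WT microglia at 1 d, against 8.06% and 4.21% of all genes. Cdkn1a (p21), the inhibitor induced by p53, went from 37.8, 33.3 and 45.4 CPM in sham libraries to 542, 747 and 979 CPM in WT and 228, 414 and 673 CPM in Fgg390-396A microglia at 1 d (log2 fold change 4.28 ± 0.40 SE, adjusted p = 6.0e-07 in WT mice). At 7 d it was at 159, 178 and 158 CPM in WT mice (log2 fold change 2.09 ± 0.37 SE, adjusted p = 0.0026). It was highest in infiltrating cells, at 2882, 2794 and 3589 CPM in WT and 1178, 1399 and 3090 CPM in Fgg390-396A mice. The pocket protein Rbl1 rose as well (log2 fold change 1.11 ± 0.28 SE, adjusted p = 0.0078). Cdkn1b (p27), the inhibitor of resting cells, fell from 15.4, 11.8 and 11.5 CPM to 6.83, 3.84 and 4.68 CPM (log2 fold change -1.33 ± 0.24 SE, adjusted p = 5.9e-04), and Cdkn1c (p57) fell as well, with few counts (log2 fold change -4.38 ± 1.25 SE, adjusted p = 0.018).

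Some of the 41 genes share sequence with other genes, which limits their counts. Processed pseudogenes at 95% identity or more to at least 20% of the transcript held 5.4% of the counts of Pcna (Pcna-ps2), 5.19% of those of Ccnb1 (Gm12856) and 1.52% of those of Uhrf1 (Gm5648), and reads could have been split between them. Kif20a overlaps Cdc23, which had 6736 counts against 431, and Prc1 overlaps Rccd1, with 898 counts against 1585. Both partners lie on the opposite strand, as do Exosc9 for Ccna2, Ints8 for Ccne2, Elovl1 for Cdc20, Ufd1 for Cdc45, Cops6 and Ap4m1 for Mcm7, Oip5 for Nusap1 and Afmid for Tk1. Without strand, reads of such pairs cannot be told apart where they overlap.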

How the data were processed

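RNA was measured in 21 libraries (Ovation RNA-seq V2, unstranded paired reads) of microglia and infiltrating myeloid cells. Quantification by the authors used salmon on GRCm38, run through nf-core/rnaseq. The deposited values are expected counts of genes, with gene length divided out and totals equal to the mapped reads. They were not normalized between libraries. The submitters' processing notes name R 4.2.0 and DESeq2 1.36.0. Groups came from the sample labels, and every column matched 1 library.

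Here the values were rounded to whole counts, and 45143 of 45706 identifiers were matched to GENCODE M21 for symbols. All 7 groups, each with its own mean, were fitted together by the quasi-likelihood method of edgeR 4.0.16 in R 4.3.3, with TMM factors, and p-values were adjusted by Benjamini-Hochberg over the 23815 genes with at least 5 counts. A gene passed at an adjusted p under 0.05, or under 0.1 between genotypes, if it also changed by more than 1 on the log2 scale, and an interaction passed at an adjusted p under 0.1. Levels are CPM with TMM factors, and means of log2 CPM use a prior count of 2. Ribosomal RNA and mitochondrial genes took 45.0% to 64.6% of a library. P-values measure the spread between libraries of 2 pooled brains. The method was tested on simulated data.

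All 41 genes could be named. Of the other lists, the text names the 2 genes per list and direction with the smallest adjusted p among those that passed over sham controls, and Cdkn1a, Ccnd1, Foxm1 and Mybl2. A gene that this rule names among the other mitotic genes is not reported here. The 41 genes and all lists were chosen with earlier results of these data known. Promoter letters were searched in RefSeq windows on GRCm38.p6.

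The replicate numbers are shared between groups. Over genes, deviations from the group means correlated by more than 0.1 in all 3 same-numbered pairs in 1 of 11 comparisons, that of genotypes in microglia at 1 d (0.12 to 0.41), where the replicate block called 0 of the 41 genes, as did the fit without it. The alternatives were DESeq2 1.42.0, its size factors, other filters on low counts, other bars on the fold change, the replicate block, fits of fewer groups, library sizes without ribosomal RNA and mitochondrial genes, and leaving out each library in turn.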

Additional observations from a re-analysis of the deposited data

How the results depend on the processing

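The direction of every log2 fold change given for the 41 genes held under all alternatives run. Most counts of genes that passed stayed within 1.5 times the value reported. In WT microglia at 7 d over sham controls the count of 3 became 8 with DESeq2, fell to 1 when only the compared groups were fitted and was 2 to 5 over the fits that left out 1 library, of which the one without sham R3 gave 5. In Fgg390-396A microglia at 7 d the count of 2 became 1 in a fit of the compared groups alone and was 2 to 2 without any 1 library. Between genotypes in infiltrating cells the count of 1 became 0 in a fit of the compared groups alone and 0 to 1 without 1 library. In Fgg390-396A infiltrating cells against microglia the count of 14 became 8 in a fit of the compared groups alone and 9 to 16 without 1 library. The causes were not tested. With the replicate number as a block, the count between genotypes in infiltrating cells became 0, Aurkb lost its call in Fgg390-396A microglia at 1 d over sham (19 genes), and Ccnb1 and Cdc6 lost theirs in WT infiltrating cells against microglia and in WT microglia at 7 d against 1 d. Over all groups, 8 of 63 same-numbered pairs had a correlation above 0.1, among them the 3 of the paired comparison and 2 of 3 in WT infiltrating cells against microglia (up to 0.15). The depth limits the rarest genes most: Plk1 had 288 counts over all libraries against 52942 for Pcna.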
